A study of Drosophila melanogaster with 2 samples.

Results

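Peaks of the zinc finger protein Ham (hamlet) were examined at divergent promoters, where 2 genes start close to each other and are read in opposite directions. A peak was taken from the pooled thresholded list when its summit lay on a main chromosome arm and within 500 bp of an annotated start site. In addition, a minus-strand and a plus-strand start site of 2 different genes had to lie within 1 kb of the summit, with the minus-strand one at the lower coordinate. The rule gave 331 peaks over 316 gene pairs, out of 1495 pooled peaks, 1421 of them on the main arms and 735 of those in promoters. The other 404 promoter peaks served for comparison. Positions alone chose these peaks from the list, and their heights were not used. The 3 peaks nearest to the limit had their farther start site at 971 bp (Psf2/Tps1), 979 bp (CG31174/CG31431) and 980 bp (Hmt4-20/SkpA). The first 3 promoter peaks past it lay at 1017 bp (lncRNA:CR43704/bowl), 1047 bp (dbe/PNUTS) and 1068 bp (alrm/CG31437). Pairs are written with the minus-strand gene first.

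The study immunoprecipitated chromatin with a GFP antibody from a transgenic strain, ham-GFP, that makes a Ham-eGFP fusion. The antibody is GFP in the labels' description, which was followed, while another field of the labels gives it as ham. Both biological replicates were whole embryos of 0 to 24 hours, so every cell type and stage of that span was mixed, and a peak has no tissue. Chromatin was sonicated to 200 to 800 bp. The labels give only this group, and neither a second genotype nor an untagged strain was compared. The labels do not say whether untagged Ham was also made. The control libraries were not analysed here. Replicate 1's thresholded list held 516 peaks and replicate 2's list 1050. The depth of the libraries is unknown, because the files used hold no read counts. A peak's height is its signal value as the authors deposited it. Nothing in the sources says that the scale is shared between replicates, so heights are compared within a list.

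Ham belongs to the PRDM family of zinc finger proteins and is known in flies for its role in the fates of sensory organ cells and in the branching of sensory neurons. Divergent promoters are common in the compact fly genome, and many of the genes that share one are housekeeping genes used in most cells. Each gene has its own core promoter, and the stretch between both start sites is often free of nucleosomes and bound by promoter factors such as Dref, BEAF-32 and M1BP.

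The stretches between the start sites of 7 pairs are shown, because the summit lay within them. The first 6 of the 7 shown were among the 20 highest peaks found in both replicates' lists. The last joins 2 genes of translation, a ribosomal protein gene and a tRNA methyltransferase gene. The stretches run 5′ to 3′ on the plus strand and were read from the RefSeq Release 6 genome at the coordinates given. The minus-strand gene starts just to the left of each stretch and the plus-strand gene just to the right. Capitals mark the 21 bases centred on the summit.
Art3/mRpS10, chr3R:15229409-15229664: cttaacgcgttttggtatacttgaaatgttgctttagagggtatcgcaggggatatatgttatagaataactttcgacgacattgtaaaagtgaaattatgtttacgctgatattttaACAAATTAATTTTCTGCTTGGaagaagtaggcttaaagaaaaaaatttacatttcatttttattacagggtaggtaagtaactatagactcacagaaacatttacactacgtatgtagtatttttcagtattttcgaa
Tcs5/CHMP2B, chr3L:5139396-5139618: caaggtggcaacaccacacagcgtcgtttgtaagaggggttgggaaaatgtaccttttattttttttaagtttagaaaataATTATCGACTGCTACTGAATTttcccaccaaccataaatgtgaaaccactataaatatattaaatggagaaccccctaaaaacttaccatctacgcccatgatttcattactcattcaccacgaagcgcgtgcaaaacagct
CG7601/CIA30, chr3R:29736746-29736964: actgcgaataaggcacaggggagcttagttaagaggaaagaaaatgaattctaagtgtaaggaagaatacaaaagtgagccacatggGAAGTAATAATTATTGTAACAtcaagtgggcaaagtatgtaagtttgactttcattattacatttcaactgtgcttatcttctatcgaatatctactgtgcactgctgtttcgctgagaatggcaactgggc
CG13390/CG17294, chr2L:8376798-8377034: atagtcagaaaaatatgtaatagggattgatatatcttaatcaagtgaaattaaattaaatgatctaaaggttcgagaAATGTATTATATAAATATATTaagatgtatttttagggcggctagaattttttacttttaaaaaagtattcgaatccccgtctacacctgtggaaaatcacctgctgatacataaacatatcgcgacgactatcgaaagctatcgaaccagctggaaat
Atat/Shc, chr3L:9426759-9427009: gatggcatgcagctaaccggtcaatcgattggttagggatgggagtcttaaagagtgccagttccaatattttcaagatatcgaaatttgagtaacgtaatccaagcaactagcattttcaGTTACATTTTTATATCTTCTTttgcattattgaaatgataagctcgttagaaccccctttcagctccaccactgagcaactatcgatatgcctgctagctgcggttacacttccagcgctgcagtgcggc
brm/Arl1, chr3L:15982870-15983134: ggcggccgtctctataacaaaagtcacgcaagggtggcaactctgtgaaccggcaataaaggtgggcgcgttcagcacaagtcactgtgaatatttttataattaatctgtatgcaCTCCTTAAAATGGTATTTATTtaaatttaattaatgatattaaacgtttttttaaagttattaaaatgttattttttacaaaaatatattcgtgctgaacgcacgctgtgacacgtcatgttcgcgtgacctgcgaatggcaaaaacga
RpL34a/Trmt61, chr3R:26059268-26059495: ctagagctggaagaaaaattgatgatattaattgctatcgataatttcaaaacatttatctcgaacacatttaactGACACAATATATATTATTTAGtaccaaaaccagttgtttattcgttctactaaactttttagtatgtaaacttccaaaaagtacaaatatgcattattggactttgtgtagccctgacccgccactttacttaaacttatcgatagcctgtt

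Between Art3, which encodes an arginine methyltransferase, and mRpS10, a gene of the mitochondrial ribosome, 69.9% of the bases were A or T. The share was 69.2% between CG13390 and CG17294, 95.2% within the 21 bases at that summit, and 57.0% between Atat and Shc. The Tcs5/CHMP2B, CG13390/CG17294, Atat/Shc and brm/Arl1 stretches each held TATAAA, the TATA box, once. CGATA, the core word of BEAF-32, occurred 3 times between CG13390 and CG17294 and 4 times between RpL34a and Trmt61. TATCGATA, the DNA replication-related element bound by Dref, occurred 2 times between RpL34a and Trmt61, from positions 36 and 214 of the 228 bases, and once between Atat and Shc. Each TATCGATA reads the same on both strands and so holds CGATA 2 times, and these are within the counts of CGATA. Of the stretches not shown, Nelf-E/RpL14 held none of these words, and Mkk4/SLIRP2 held TATAAA 2 times and CGATA 3 times. All these words were searched on both strands, and a match is only a match of letters.

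The highest divergent peak lay between mRpL41, of the mitochondrial ribosome, and CG8079, with a signal value of 953.5 in the pooled list, 257.5 in replicate 1 and 698.6 in replicate 2. Next came the peak between Ugalt, a nucleotide sugar transporter gene, and eIF2Bbeta, a subunit of the exchange factor of translation initiation, with 855 in the pooled list, 229 in replicate 1 and 624 in replicate 2. Art3/mRpS10 had 626 in the pooled list, 161 in replicate 1 and 465 in replicate 2. All 3 were in both replicates' lists, and their order among themselves was the same in each replicate. In replicate 1, however, Art3/mRpS10 lay below several peaks that were lower in the pooled list, such as that of eIF6 (198).

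The following peaks were close to each other in height. Beside eIF6, a ribosome assembly factor gene, the peak of 615 had values of 198 in replicate 1 and 430 in replicate 2. Between mRpS23, of the mitochondrial ribosome, and CenG1A they were 601.3, 177 and 428, in the same order. Between CG5611 and Mtl they were 587, 141 and 443. Replicate 1 and replicate 2 ordered these pairs differently, so heights this close set no rank. Tcs5, which encodes a subunit of a tRNA modification complex, and CHMP2B, of the ESCRT machinery, flanked a peak of 584, with 176 in replicate 1 and 413 in replicate 2. Chro, which encodes a chromatin protein of interbands, and Ssl1, of the general factor TFIIH, had a peak of 542, with 176 and 365. CG7601/CIA30, the second an assembly factor gene of respiratory complex I, had 539, with 148 and 399. PNPase, which encodes a mitochondrial RNA-degrading enzyme, and Gprk2, a kinase gene, had 537, with 164 and 366.

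The other 10 of the 20 highest ran from 523 at Pex11ab/CG8320, the first a peroxisome gene, down to 356 at Mkk4/SLIRP2. Among them were mRpL23/CG9004 (434), CG1275/Elp5 (426), the second a gene of the Elongator complex, and brm/Arl1 (390), which join the ATPase of the Brahma remodelling complex and a GTPase of the Golgi. The rest were CG13390/CG17294 (472), Fbw5/CG9147 (461), Atat/Shc (405), CG5757/CG5098 (400.97) and tank/CG12194 (361). Over all 20, values ran from 109 to 257.5 in replicate 1 and from 243 to 698.6 in replicate 2. Mitochondrial ribosomal protein genes were in 4 of the 20 pairs, beside 7 of all 316 pairs (2.22%). Both genes were protein-coding in 19 of the 20 pairs, beside 93.1% of all divergent peaks. The summit lay between the start sites in 13 and outside in 7, among them eIF6/asRNA:CR45928, Chro/Ssl1 and PNPase/Gprk2. All 20 peaks were narrower than 336 bp, the common width that 299 of the 331 divergent peaks had.

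**Figure D1:**
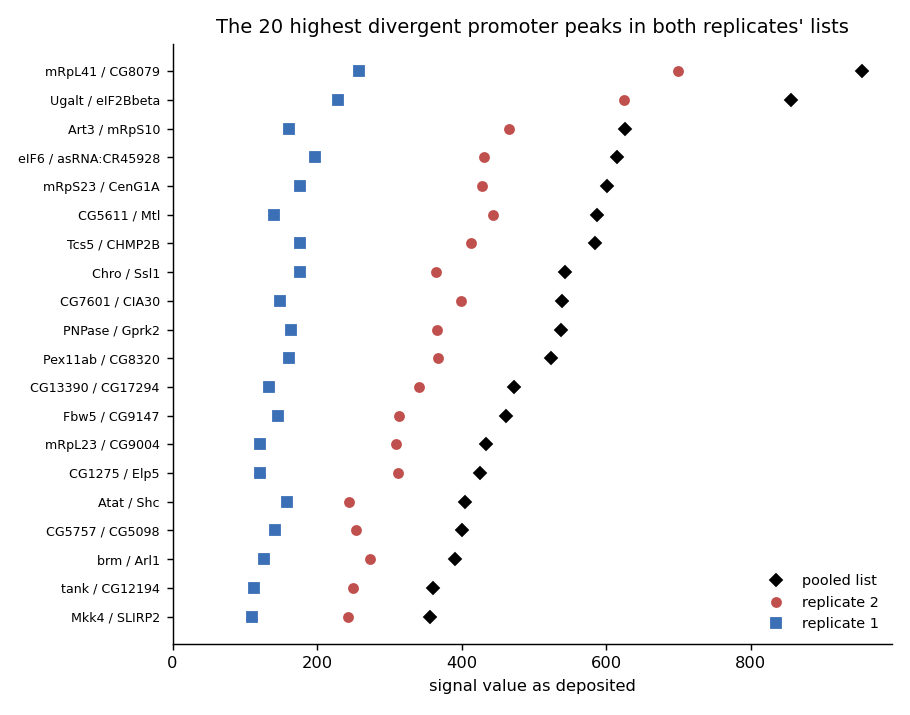
Signal value as deposited, on the horizontal axis, of the 20 highest divergent promoter peaks that were in both replicates' lists, 1 gene pair a row, with points for the pooled list, replicate 1 and replicate 2. Replicate 1 lies between 109 and 257.5 and replicate 2 between 243 and 698.6, and mRpL41/CG8079 is highest in each.

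Over all 331 divergent peaks the signal value ran from 4.14 to 953.5, with a median of 105.6 and quartiles of 81.2 and 160.8. The median was 98.98 over the other promoter peaks and 82.4 over the 686 peaks away from promoters. The median over all promoter peaks was 101.9. Of the divergent peaks 175 (52.9%, 95% Wilson interval 47.5% to 58.2%) were above it, against 192 of the other promoter peaks (47.5%, 42.7% to 52.4%), and this difference did not pass (Fisher's exact test, two-sided, adjusted p = 0.159 over 5 tests). Among the 20, 50 and 100 highest promoter peaks 13, 26 and 48 were divergent, beside 45.0% of all promoter peaks. The last 2 are near that share, and the interval of the first (65%, 43.3% to 81.9%) includes it. A low tail of 13 divergent peaks had values under 50, and 12 of these overlapped another pooled peak. The lowest were lncRNA:CR45618/prtp (4.14) and Rpe/Vps13 (4.32).

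Of the 331 divergent peaks, 300 had a candidate region of each replicate at the summit. There replicate 1's value had a median of 36.0 (range 3.13 to 257.5) and replicate 2's a median of 79.6 (5.34 to 698.6), on scales that may differ. Across these 300 peaks Spearman's rank correlation of the replicates' values was 0.719 and Pearson's r on log2 values was 0.719. They were 0.571 and 0.676 over 351 other promoter peaks and 0.305 and 0.563 over 599 peaks away from promoters. These are descriptions across peaks of the same 2 libraries, which are not independent replicates.

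Divergent peaks were more often found in both replicates. Of the 331, 126 (38.1%, interval 33.0% to 43.4%) overlapped a thresholded peak of each replicate, against 116 of the 404 other promoter peaks (28.7%, 24.5% to 33.3%; Fisher's exact test, two-sided, adjusted p = 0.0115). The share over all 1421 main-arm peaks was 25.3%. With replicate 1's list alone 135 (40.8%) had a match and with replicate 2's alone 267 (80.7%), while 9 were in replicate 1's list only, 141 in replicate 2's only and 55 in neither. The conservative list, the authors' shorter one, held 209 of the divergent peaks (63.1%, 57.8% to 68.2%) and 210 of the other promoter peaks (52.0%, 47.1% to 56.8%; Fisher's exact test, adjusted p = 0.00454), with 50.3% over all main-arm peaks. Neither difference passed when both start sites could lie up to 2 kb away (35.4% in both replicates and 59.7% in the conservative list, Fisher's exact test, adjusted p = 0.170 for each). The first also did not pass with only the outermost start site of each gene (36.1%, Fisher's exact test, adjusted p = 0.121).

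Divergent promoters made up a larger share of thresholded promoter summits than of other promoter candidate regions. They were 331 of 735 (45.0%, interval 41.5% to 48.6%) against 4814 of 20528 candidate regions that were not in the thresholded list (23.5%, 22.9% to 24.0%; odds ratio 2.67, Fisher's exact test, two-sided, adjusted p = 9.32e-36). Put the other way, 6.43% of divergent promoter candidate regions were thresholded, 2.51% of the other promoter candidate regions and 0.964% of all candidate regions on the main arms. In replicate 1's own list the divergent share was 49.3% and in replicate 2's 48.2%, each above its own candidate regions (22.2% and 24.2%). The test treats regions as independent, which they are not, and it describes these lists rather than the spread between embryos. By arm, 36 divergent peaks lay on X, 66 on 2L, 63 on 2R, 83 on 3L and 83 on 3R. On these arms lay 472, 612, 648, 578 and 724 of the 3058 annotated gaps, in the same order. There were 0 divergent peaks on 4 and Y, where 22 and 2 of the gaps lay. Differences between arms were not tested.

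The summit lay between the start sites at 257 of the 331 divergent peaks (77.6%, interval 72.9% to 81.8%), against 1509 of the 4814 divergent candidate regions that did not pass (31.3%, 30.1% to 32.7%; odds ratio 7.61, Fisher's exact test, two-sided, adjusted p = 7.69e-62). With both start sites within 500 bp of the summit the shares were 77.4% and 44.1%. The median distance of a summit inside the gap to the nearer start site was 96 bp. At Art3/mRpS10 the summit lay 129 bp from one start site and 128 bp from the other, and at brm/Arl1 127 and 139 bp. At Ugalt/eIF2Bbeta, whose start sites were 719 bp apart, it lay 39 bp from that of Ugalt. The position depended on the distance between the start sites. In pairs 201 to 300 bp apart 92.9% of 99 peaks and 23.1% of 901 candidate regions had the summit inside. In pairs up to 100 bp apart the shares were 7.89% of 38 peaks and 9.21% of 521 candidate regions, so there the peaks were not more often inside. Most peaks had the common width with the summit at its middle, which limits how finely a position can be read.

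**Figure D2:**
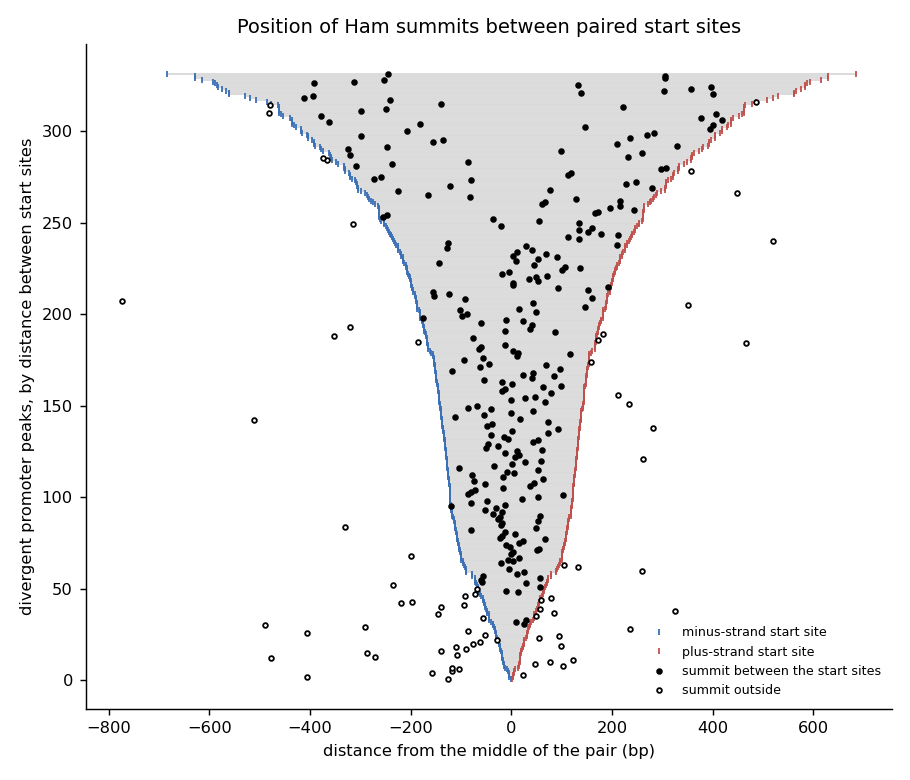
Each row is 1 of the 331 divergent promoter peaks, ordered by the distance between its start sites, and the horizontal axis is the distance in bp from the middle of the pair. Blue and red ticks are the minus-strand and plus-strand start sites, filled points the 257 summits between them and open points the 74 outside, which gather where start sites are close.

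Where the summit was outside the gap, at 74 peaks, the start sites were a median of 105 bp apart, against 346 bp where it was inside, and the median height was 95.5 against 108.6. For the highest of these, eIF6/asRNA:CR45928, the start sites were 29 bp apart and the summit lay 117 bp upstream of the eIF6 start site, downstream of the other. Pex11ab/CG8320 (33 bp apart) had it 139 bp upstream of Pex11ab, and CG1275/Elp5 (33 bp apart) 94 bp upstream of CG1275. mRpL23/CG9004 (50 bp apart) had it 102 bp upstream of CG9004, and Ripalpha/RpL7 (30 bp apart, 322) 61 bp upstream of Ripalpha.

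Being upstream of the nearest start site was not particular to divergent promoters. Of the divergent peaks 260 of 331 (78.5%) and of the other promoter peaks 315 of 404 (78.0%) had the summit there, against 32.8% and 41.9% of the candidate regions of each kind that did not pass. Over these upstream summits alone the median distance was 96.5 bp at divergent promoters and 173 bp at the others. Over the upstream candidate regions that did not pass it was 101.5 bp and 221 bp, in the same order. The shorter distance at divergent promoters was therefore not particular to the peaks. The difference in distance was not tested, and a divergent summit has at least 2 start sites near it, where another promoter may have 1.

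**Figure D3:**
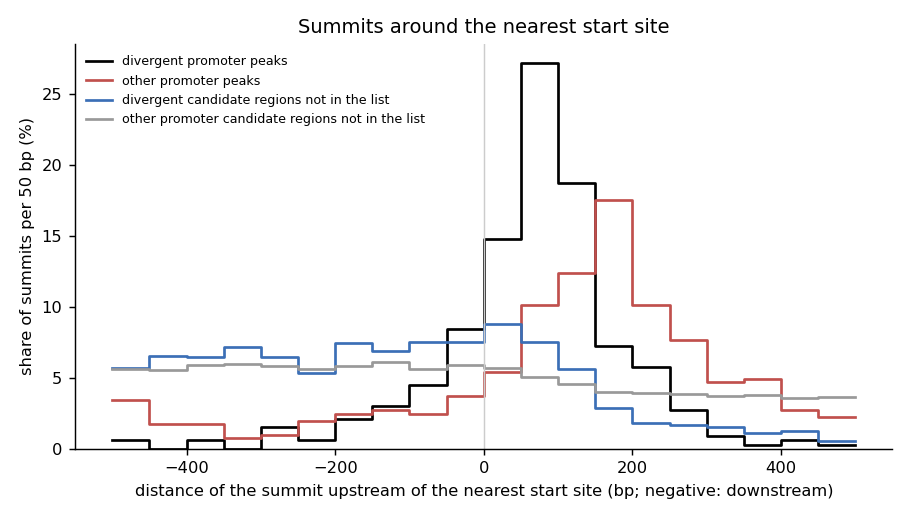
Share of summits (%) in steps of 50 bp by distance upstream of the nearest start site (bp, negative values downstream), for divergent promoter peaks, other promoter peaks and the candidate regions of both kinds that did not pass. The divergent peaks are highest at 50 to 100 bp upstream (27.2%), the other promoter peaks at 150 to 200 bp (17.6%), and both kinds of candidate region are spread more evenly.

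The distance between the start sites was a median of 298 bp at divergent peaks (range 2 to 1368, quartiles 222.5 and 501.5). The annotation held 3058 gaps in which a minus-strand start site is followed, with no other start between, by a plus-strand one of another gene up to 1000 bp away. Their median was also 298 bp. A pooled summit lay within 500 bp of the middle of 292 gaps, or 9.55%. The share was 16.1% (97 of 601) for gaps of 201 to 300 bp, 10.5% (51 of 484) up to 100 bp, 5.68% (26 of 458) for 101 to 200 bp and 9.84% (42 of 427) for 301 to 400 bp. It was 7.21% (40 of 555) for 401 to 600 bp and 6.75% (36 of 533) for 601 to 1000 bp. Gaps of 201 to 300 bp also had the highest share in replicate 1's list (6.32%), replicate 2's list (14.0%) and the conservative list (11.1%), and among pairs of protein-coding genes (18.8%). In replicate 1 the gaps up to 100 bp were close behind, with 5.79%. Differences between the classes were not tested.

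**Figure D4:**
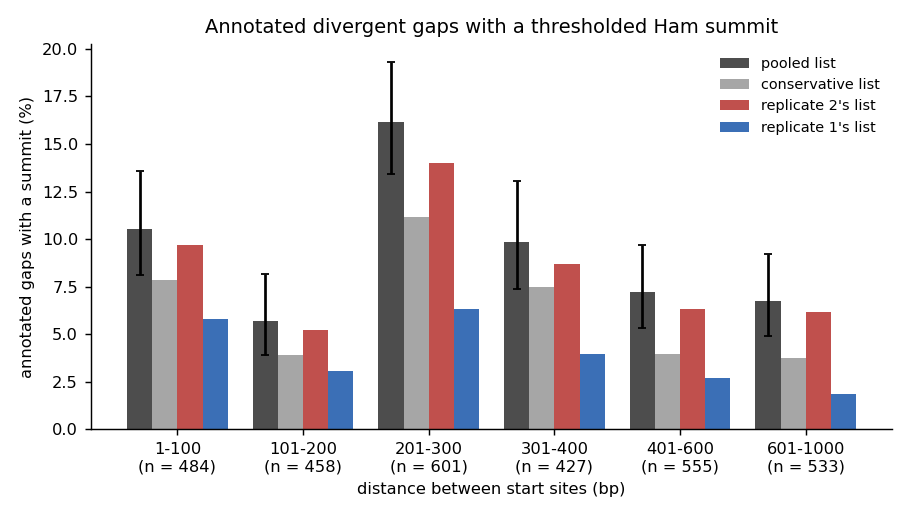
Share of annotated divergent gaps (%) with a thresholded summit within 500 bp of their middle, by distance between the start sites (bp, number of gaps below), with bars for the pooled, conservative, replicate 1 and replicate 2 lists. The class of 201 to 300 bp is highest in every list, with 16.1% in the pooled list and 6.32% in replicate 1.

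The shortest distances were those of dpa/didum (2 bp), SerRS/CG17260 (8 bp) and CG9588/Lkb1 (8 bp). dpa encodes a subunit of the replicative helicase, didum a myosin, SerRS the seryl-tRNA synthetase and Lkb1 a kinase. The peak at dpa/didum had a pooled value of 83.4, with 27.5 in replicate 1 and 52.5 in replicate 2, and its summit lay 127 bp upstream of didum. The one at SerRS/CG17260 had 139 (56.0 and 90.5) and was in both lists. That of CG9588/Lkb1 had 98.1 (32.6 and 55.8), with its summit 409 bp upstream of Lkb1, downstream of the CG9588 start site. The longest were mtd/Tim17b1 (1368 bp), ubl/koi (1258 bp) and CG2680/CG2681 (1257 bp), with pooled values of 68.5, 64.5 and 69.4, and mtd/Tim17b1 was in replicate 2's list and the others in neither list.

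Pairs of protein-coding genes carried most of the divergent peaks, 308 of 331 (93.1%), and made up 80.2% of the annotated gaps. Of the annotated gaps between 2 protein-coding genes 11.1% (272 of 2451) had a pooled summit, and of those with a noncoding gene or pseudogene 3.29% (20 of 607), against 9.55% of all gaps. The shares were 4.65% and 1.32% in replicate 1's list and 9.79% and 3.29% in replicate 2's list. The difference was not tested.

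Genes of the cytosolic ribosome stood at 23 of the 316 pairs with a divergent peak. Of 58 annotated gaps with such a gene 23 (39.7%) had a pooled summit, against 9.55% of all gaps, and 8 had one in replicate 1's list, 22 in replicate 2's and 18 in the conservative list. Their 25 peaks had a median height of 104.7, close to the median of all divergent peaks, and 9 of them were in both replicates' lists. The highest were Ripalpha/RpL7 (322 in the pooled list, 93.7 in replicate 1, 214 in replicate 2), RpL34b/CG8132 (254, 61.6 and 194) and RpS27/Nup37 (248, 44.9 and 201). Lower ones were RpL32/CG7943 (194), CG3104/RpS21 (125), msn/RpL8 (109), CG7130/RpLP0 (105), Rok/RpS19a (99.5) and Dref/RpL13 (56.7). The last pairs RpL13 with the gene of Dref itself. The presence of Ham peaks at ribosomal protein genes was already known from these lists, so the count gives no independent support.

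Of the 58 annotated gaps with a gene of the mitochondrial ribosome 6 (10.3%) had a pooled summit, near the 9.55% of all gaps. The 7 divergent peaks at its genes had a median height of 434, and all 7 were in both replicates' lists, beside 38.1% of all divergent peaks. They were mRpL41, mRpS10, mRpS23, mRpL23, mRpL20/Icmt (202 in the pooled list, 71.5 in replicate 1, 137 in replicate 2), mRpL24/betaggt-I (193, 57.3 and 143) and mRpS2/Mon1 (143, 48.7 and 86.6). The difference between the cytosolic and mitochondrial ribosome was not tested.

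Groups were drawn up by gene symbol and are not complete: the tRNA group lacks GluProRS, Dus2 and Dus3 and the vesicle group lacks CHMP2B and alphaCOP, though these genes also had divergent peaks. Translation factor genes had a summit in 10 of 32 gaps (31.3%, against 9.55% of all gaps), with 2 in replicate 1's list and 6 in replicate 2's. Their 11 divergent peaks had a median of 88.8, and 2 were in both lists. After eIF2Bbeta and eIF6 came eIF4EHP/CG18428 (313 in the pooled list, 100.1 in replicate 1, 210 in replicate 2), the first a cap-binding translational repressor gene, and then CCHa1-R/eIF3c (104), Rbbp5/eRF1 (88.8) and eIF3h/senju (83.3). The peak at eIF4EHP/CG18428 was in the conservative list but overlapped no thresholded peak of either replicate. Genes of tRNA synthetases and tRNA modification had a summit in 7 of 38 gaps (18.4%), at IleRS, SerRS, Elp5, Elp6, Tcs5, Trmt6 and Trmt61. Genes of the transcription machinery had one in 12 of 65 (18.5%), among them the polymerase subunit genes Polr2B (143), Polr2H (109) and Polr2J (78.0). The Mediator genes MED27 (146), MED30 (131), MED7 (93.2) and MED4 (73.1) were also among them, as were the Integrator genes IntS6 (158), IntS11 (139) and IntS9 (70.2).

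Over all gaps the share was 9.55%, and most of the remaining groups lay near or below it. The vesicle traffic group had a summit in 9 of 68 gaps (13.2%), among them those of brm/Arl1 (390), Vps36/Liprin-beta (150) and Fur1/Vps33B (146). Oxidative phosphorylation had 4 of 49 (8.16%), with ND-ASHI/Fum1 (188) and TppII/ND-MWFE (142) highest. Replication and repair had 2 of 30 (6.67%), among them TH1/mei-41 (89.7). The shares were 1 of 26 for the proteasome (3.85%), 1 of 31 for splicing (3.23%), 1 of 22 for ribosome biogenesis (4.55%) and 0 of 5 for mitochondrial import, too few gaps to read. A group gene was at 82 of the 331 peaks (24.8%), and the share over all annotated gaps is not given here. Of 1532 annotated gaps with a gene that has only a CG number, 134 (8.75%) had a summit. Numbers of gaps per group are small, eIF6 counts in both translation factors and ribosome biogenesis, and no group was tested.

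Both genes belonged to a group in 4 pairs. Nelf-E, of the factor that pauses RNA polymerase, and RpL14 shared a peak of 164, with 42.1 in replicate 1 and 125 in replicate 2, in both lists. RpL28/eIF1 had 93.4, with no candidate region in replicate 1 at the summit and 59.2 in replicate 2. Exo84/Vps2, of the exocyst and of ESCRT, had 86.5 (40.1 and 37.8), and RpL34a/Trmt61 had 82.7 (20.6 and 59.5). RpL28/eIF1 and RpL34a/Trmt61 were in replicate 2's list only, and Exo84/Vps2 was in neither.

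At 15 pairs more than 1 divergent peak was listed. At l(1)G0320/RpS28b, with start sites 873 bp apart, peaks of 178 and 95.2 lay in the gap. Ac78C/chb, an adenylyl cyclase gene beside that of the microtubule protein Chb, had peaks of 84.5 and 82.9, and CG34288/CG34376 had 104 and 76.2. Trmt6/Ent2 had 188 and 66.9, and ERR/Atg18a 91.5 and 73.0. At Ino80/Aptx (178 and 25.3), Brf/sds22 (146 and 20.1), lncRNA:CR45618/prtp (131 and 4.14), CG11593/Rcd5 (101 and 17.6), SMC2/Ercc1 (94.4 and 9.90), glo/COX5A (89.2 and 31.7) and Mical/CG3909 (87.8 and 9.06) 1 of the peaks was much the lower. eIF5B/CG46463 had 65.5 and 16.1, and CG4860/Rsbp15 42.6 and 31.1. The higher peaks at Ino80/Aptx, Brf/sds22 and lncRNA:CR45618/prtp each overlapped another pooled peak, as did 12 of the 13 divergent peaks under 50. The peaks listed at such a pair need not be separate sites.

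The bases around divergent summits were rich in A and T. Within 50 bp to each side they made up 65.5% over the 331 peaks, 63.1% over the other promoter peaks and 52.8% over the divergent candidate regions that did not pass. The middles of annotated gaps without a peak, at 65.8%, were as rich, and gene starts had 57.2%. Divergent peaks above the promoter median averaged 68.4% and those below it 62.2%. Summits in the gap had 66.8% and those outside 61.0%. At single peaks the share was 82.2% at CG5611/Mtl, 81.2% at brm/Arl1 and 77.2% at mRpL41/CG8079, but 39.6% at Ripalpha/RpL7 and 47.5% at RpL28/eIF1. The share fell on both sides of the summit. The differences were not tested, and base composition also moves with the position in the gap.

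**Figure D5:**
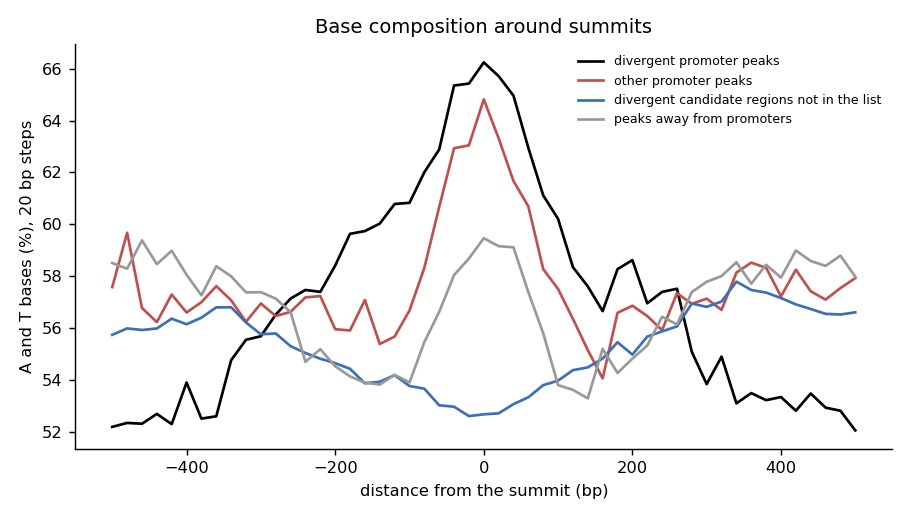
Share of A and T bases (%) in steps of 20 bp against the distance from the summit (bp), for divergent promoter peaks, other promoter peaks, divergent candidate regions that did not pass and peaks away from promoters. The divergent peaks reach 66.2% at the summit and fall to 52.2% and 52.1% at 500 bp on either side, while the candidate regions are lowest near the summit.

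Of the words known from fly promoters, TATAAA and TCAGT were slightly more frequent at divergent summits than in gaps without a peak. The others were less frequent. Windows reached 50 bp to each side of a summit, and both strands were searched. TATCGATA was in 12 of 331 windows (3.63%, interval 2.09% to 6.23%), against 1.24% at other promoter peaks, 4.48% at the middles of gaps without a peak and 4.37% at all 18277 gene starts. It was in 1.52% of the divergent candidate regions that did not pass. Of the 12 peaks with TATCGATA 5 were at a cytosolic ribosomal protein gene, as were 25 of all 331 divergent peaks. The 5 were RpL41/NaCP60E (200.5), RpL19/CG3776 (132), RpS7/Anp (113), RpS25/CG4820 (97.4) and Adk2/RpS12 (69.0). These pairs were named after their values were seen. 1 of the 12, RpL41/NaCP60E, was in both replicates' lists. CGATA, which is part of TATCGATA, was in 20.5% of divergent windows, 13.9% at other promoter peaks, 23.1% in gaps without a peak and 22.6% at gene starts. It was in 15.7% of the divergent candidate regions that did not pass.

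GGTCACAC, the core of the M1BP word, was in 1.81% of divergent windows (6 peaks), against 1.49% at other promoter peaks, 2.49% of gaps without a peak and 4.36% of gene starts. The E-box word CAGCTG was in 5.44%, against 1.73% at other promoter peaks, 6.36% in gaps without a peak and 8.0% at gene starts. GAGAG, bound by the GAGA factor, was in 6.34%, against 12.9% at other promoter peaks, 8.39% in gaps without a peak and 11.6% at gene starts. TATAAA was in 23.9%, near the 20.8% of other promoter peaks and 22.1% of gaps without a peak but above the 8.54% of divergent candidate regions that did not pass and the 16.0% of gene starts. TCAGT, the initiator core, was in 17.8%, against 14.1% at other promoter peaks, 16.1% in gaps without a peak and 29.0% at gene starts. GATAA, the core of GATA factors, was in 22.1%, against 21.8% at other promoter peaks, 21.4% at gene starts and 28.2% in gaps without a peak. Of the divergent candidate regions that did not pass, 1.27% held GGTCACAC, 6.15% CAGCTG, 11.1% GAGAG, 16.6% TCAGT and 17.7% GATAA. GACAAGATA and GAAGATGAG, the words of the zinc finger domains of mammalian homologs of Ham, were in 0 of 331 windows, and in 0.0438% and 0.0383% of gene starts. These shares were not tested, and words rich in A and T move with the base composition given above.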

How the data were processed

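Peak lists of 2 biological replicates and of both pooled were used, with genome build dm6 per the labels. Which aligner, peak caller and control they came from is not given in the sources used here. Signal values are the authors' values as deposited, with no stated scale. The score is the authors' deposited reproducibility score, at most 1000, and pooled thresholded peaks had at least 830. Thresholded and ranked (candidate) lists are the authors' own. Of the candidate regions on the main arms, 112 outside the pooled list had that score too, 11 of them divergent, and the reason is not stated. The columns of sub-lists (8) were not used, because no label names their sample.

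Start sites were all transcript starts of Ensembl release 115 (BDGP6.54) on the main arms, without transposable elements (24111 sites of 18277 genes). A peak's pair is the qualifying pair with the smallest summed distance to the summit. Bases came from the RefSeq Release 6 genome. Scripts ran in Python 3.11.15 with numpy 2.4.6, pandas 2.3.3 and scipy 1.17.1 and were tested on simulated data. The 5 comparisons used Fisher's exact test (two-sided) with Benjamini-Hochberg adjustment over them, and intervals are 95% Wilson intervals, which cover counting error only. Overlap meant at least 1 bp. Alternatives covered the start sites used, the 1 kb limit, 1 peak per pair, the other lists, each replicate alone and the word windows.

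Named pairs are those of the 20 highest divergent peaks in both replicates' lists, the pairs with both genes in a group, the 3 shortest and 3 longest distances, and pairs with more than 1 peak, of which some are not reported here. Others named were chosen as examples after their values were seen. The peaks, words, groups and tests were chosen with earlier results of these data known.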

Additional observations from a re-analysis of the deposited data

How the results depend on the processing

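The larger divergent share of thresholded promoter summits and the more frequent position of the summit between the start sites kept their direction and passed Fisher's exact test under every alternative run for them. Without replicate 1 or 2 the divergent share ranged from 48.2% to 49.3% and the share between the start sites from 77.4% to 80.1%. The share of divergent peaks above the promoter median height ranged from 48.1% to 50.2% without either replicate. Without replicate 2 it was 48.1% against 51.8% of the other promoter peaks, a reversed direction with no call (Fisher's exact test, adjusted p = 0.626). With both start sites within 500 bp it passed (55.2%, Fisher's exact test, adjusted p = 0.0376). The share in both replicates no longer passed with the outermost start site of each gene only (36.1%, Fisher's exact test, adjusted p = 0.121) or with both start sites within 2 kb (35.4%, adjusted p = 0.170), where that in the conservative list did not pass either (59.7%, adjusted p = 0.170). The overlap with a single replicate's list ranged from 40.8% to 80.7%. The cause of these changes was not tested. Word shares rise with the window: with 25 and 100 bp on either side, TATCGATA was in 2.72% and 7.85% of divergent windows, CGATA in 12.4% and 37.2%, and GGTCACAC in 0.302% and 3.02%. No paired analysis was possible because both replicates belong to a single group. Without read counts, depth limits cannot be given.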

Other observations

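A noncoding gene or pseudogene was a partner at 23 of the 331 divergent peaks, and in 607 of the 3058 annotated gaps. Of the 23 peaks 9 (39.1%) were in both replicates' lists, near the 38.1% of all divergent peaks. After eIF6/asRNA:CR45928 the highest were lncRNA:CR44149/brwl (259 in the pooled list, 81.5 in replicate 1, 162 in replicate 2), Reg-5/asRNA:CR43257 (229, 65.3 and 153) and asRNA:CR44429/gce (225, 100.6 and 118), where gce encodes a juvenile hormone receptor. Lower ones were nej/lncRNA:CR42657 (128), the first encoding the coactivator CBP, lncRNA:CR45668/Act5C (114), a cytoplasmic actin gene, fkh/lncRNA:CR43126 (104), a forkhead factor gene of the gut and salivary gland, and lncRNA:CR43644/E(spl)m3-HLH (85.3), a Notch target gene. Transfer RNA genes were partners at 2 peaks, tRNA:Tyr-GTA-1-8/CG8036 (172) and tRNA:His-GTG-1-3/CG8490 (65.8). These pairs were named after their values were seen.

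A range of 80 to 150 bp upstream of a start site was also chosen after the values were seen. The summit lay in it for at least 1 start site at 48.3% of the divergent peaks, 21.0% of the other promoter peaks and 12.5% of the divergent candidate regions that did not pass. It did so at 19 of the 20 highest divergent peaks in both replicates' lists, at 28 of the 32 divergent peaks narrower than 336 bp, and at 44.1% of those of that width. The shares were 60% above the promoter median height and 35.3% below it. By the rule a divergent peak has at least 2 start sites near it, while another promoter peak need not. The shares of divergent and other promoter peaks therefore do not rest on equal numbers of start sites. Of the other promoter candidate regions that did not pass, 7.15% had the summit in the range. The parts of the number of start sites, height and width in these shares were not tested.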
